A study of Mus musculus with 8 samples.

Results

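The 10 genes described here are targets or regulators of NF-kappaB signalling in the mouse lung: the cytokine genes Il6 and Tnf, the feedback inhibitor genes Nfkbia, Tnfaip3 and Socs3, the cyclooxygenase gene Ptgs2, and the adhesion molecule genes Icam1, Vcam1, Sele and Selp. They were chosen by name, out of 18191 genes that had a probe set assigned to a single symbol, and 22 probe sets measured them. The brightest probe set of a gene, by its mean over all 8 arrays, gives its main value, and the others are given beside it.

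The mice were outbred ICR males, aged 5 to 6 weeks, and total RNA was taken from lobe 1 on the right side of the lung. SWCNT day 1 and SWCNT day 7 lungs came from animals given 0.5 mg of single-walled carbon nanotubes, fibrous carbon particles, once through the exposed trachea. The tubes were suspended in 50 µl of the surfactant Pluronic F-68 (PF68) at 0.1%. PF68 day 1 and PF68 day 7 lungs came from animals given PF68 without tubes in the same way, so that anaesthesia with pentobarbital, the neck incision and the surfactant were common to all groups. Each group had 2 arrays (n = 2). The study asked how the lung's transcripts respond to the tubes in an acute phase (day 1) and a sub-chronic phase (day 7). The labels name biological replicates but no animals. The spread behind each p-value is that between arrays of the same group, pooled over all groups, and could be technical.

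NF-kappaB is a family of transcription factors held in the cytoplasm by inhibitor proteins, of which the product of Nfkbia, IkappaB-alpha, is the best known. Signals from TNF, interleukin-1 or microbial products lead to its destruction. The factor then enters the nucleus and induces cytokines, endothelial adhesion molecules that slow and arrest leukocytes, and its own inhibitors, Nfkbia and Tnfaip3. In lungs challenged with particles, such genes are commonly read as part of the acute inflammatory response.

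The promoter sequences of the 5 genes with an unadjusted p below 0.05 on day 1, chosen after their values were seen, are shown because 4 of them (Il6, Tnfaip3, Nfkbia and Icam1) had lower signals in SWCNT lungs and 1 (Socs3) a higher signal. They are the 250 bases before the annotated start, from RefSeq's table for GRCm38.p6, read 5′ to 3′ on the gene's strand. Capitals mark matches to GGNNNTTCC on either strand, a core of the kappaB element. The matches describe letters and not bound sites. The windows are chr5:30012864-30013113, plus strand, for Il6; chr10:19015411-19015660, minus strand, for the first of 2 starts of Tnfaip3; chr12:55492648-55492897, minus strand, for Nfkbia; chr9:21015690-21015939, plus strand, for Icam1; and chr11:117969367-117969616, minus strand, for Socs3.
Il6: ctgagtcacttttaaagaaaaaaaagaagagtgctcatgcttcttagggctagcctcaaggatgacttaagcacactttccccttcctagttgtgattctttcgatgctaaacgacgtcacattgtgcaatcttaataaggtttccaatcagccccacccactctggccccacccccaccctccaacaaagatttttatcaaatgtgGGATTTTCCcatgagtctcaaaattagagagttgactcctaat
Tnfaip3: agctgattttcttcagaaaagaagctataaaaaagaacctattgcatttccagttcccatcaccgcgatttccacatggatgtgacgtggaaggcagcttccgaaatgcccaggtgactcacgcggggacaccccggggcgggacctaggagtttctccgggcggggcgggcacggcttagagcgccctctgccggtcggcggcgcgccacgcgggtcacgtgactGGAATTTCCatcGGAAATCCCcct
Nfkbia: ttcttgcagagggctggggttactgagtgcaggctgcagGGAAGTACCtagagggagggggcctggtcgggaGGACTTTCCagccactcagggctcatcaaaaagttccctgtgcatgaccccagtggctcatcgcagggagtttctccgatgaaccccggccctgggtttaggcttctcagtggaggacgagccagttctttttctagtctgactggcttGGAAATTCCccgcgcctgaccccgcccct
Icam1: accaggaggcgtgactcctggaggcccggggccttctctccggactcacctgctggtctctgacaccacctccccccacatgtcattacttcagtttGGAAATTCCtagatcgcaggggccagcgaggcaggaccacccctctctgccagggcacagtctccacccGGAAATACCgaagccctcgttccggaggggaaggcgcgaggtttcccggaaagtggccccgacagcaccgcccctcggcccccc
Socs3: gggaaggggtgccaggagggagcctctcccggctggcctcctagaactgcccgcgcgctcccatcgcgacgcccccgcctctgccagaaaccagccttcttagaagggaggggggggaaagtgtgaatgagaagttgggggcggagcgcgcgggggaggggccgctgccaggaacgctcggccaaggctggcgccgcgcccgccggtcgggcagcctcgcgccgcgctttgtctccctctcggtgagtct

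The Nfkbia window held 3 separate stretches that match, those of Icam1 and Tnfaip3 held 2 each, that of Il6 held 1 and that of Socs3 none. In Tnfaip3, Nfkbia and Icam1, 1 stretch each matches on both strands. Of the 10 genes, 9 had a window in the table and 7 of these a match, against 17.6% of the 27025 genes in it and 15.7% of its 32851 windows. The 10 genes were picked as targets or regulators of NF-kappaB, so these shares are a description and test nothing. Ptgs2 had no match in its window, while Tnf, Sele and Selp had 1 each. The window of the other Tnfaip3 start held 1 match. Vcam1 was named only.

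The sorted values were the same on all 8 arrays, with a median of -0.63 on a scale read as log2, so a level below 0 need not be a dim one. The files hold no detection calls, and whether a transcript with a signal below the median was present was not tested. The 3′ minus 5′ signal of the beta-actin control, which rises as RNA shortens, was 1.34 in SWCNT day 1, 2.02 in PF68 day 1, 2.97 in SWCNT day 7 and 3.27 in PF68 day 7 (means, n = 2 arrays). All 6 markers of alveolar type 1 cells and all 10 of endothelium lay above the array median on at least 1 array of every group. The SWCNT day 1 arrays also held transcripts of skeletal muscle and of stratified squamous epithelium. The summed linear signal of 8 muscle markers was 86.8 and 89.4 in them, against 4.27 and 4.55 in PF68 day 1, and that of 7 squamous markers was 34.8 and 37.0, against 2.92 and 3.32. In PF68 day 1, 6 of the muscle and 5 of the squamous markers were below the array median on both arrays, and Krt14 was so on all 8. On day 7 the muscle markers summed to 4.22 and 4.69 in SWCNT and 4.36 and 5.22 in PF68 lungs. The part of this tissue in the differences below was not tested.

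**Figure D1:**
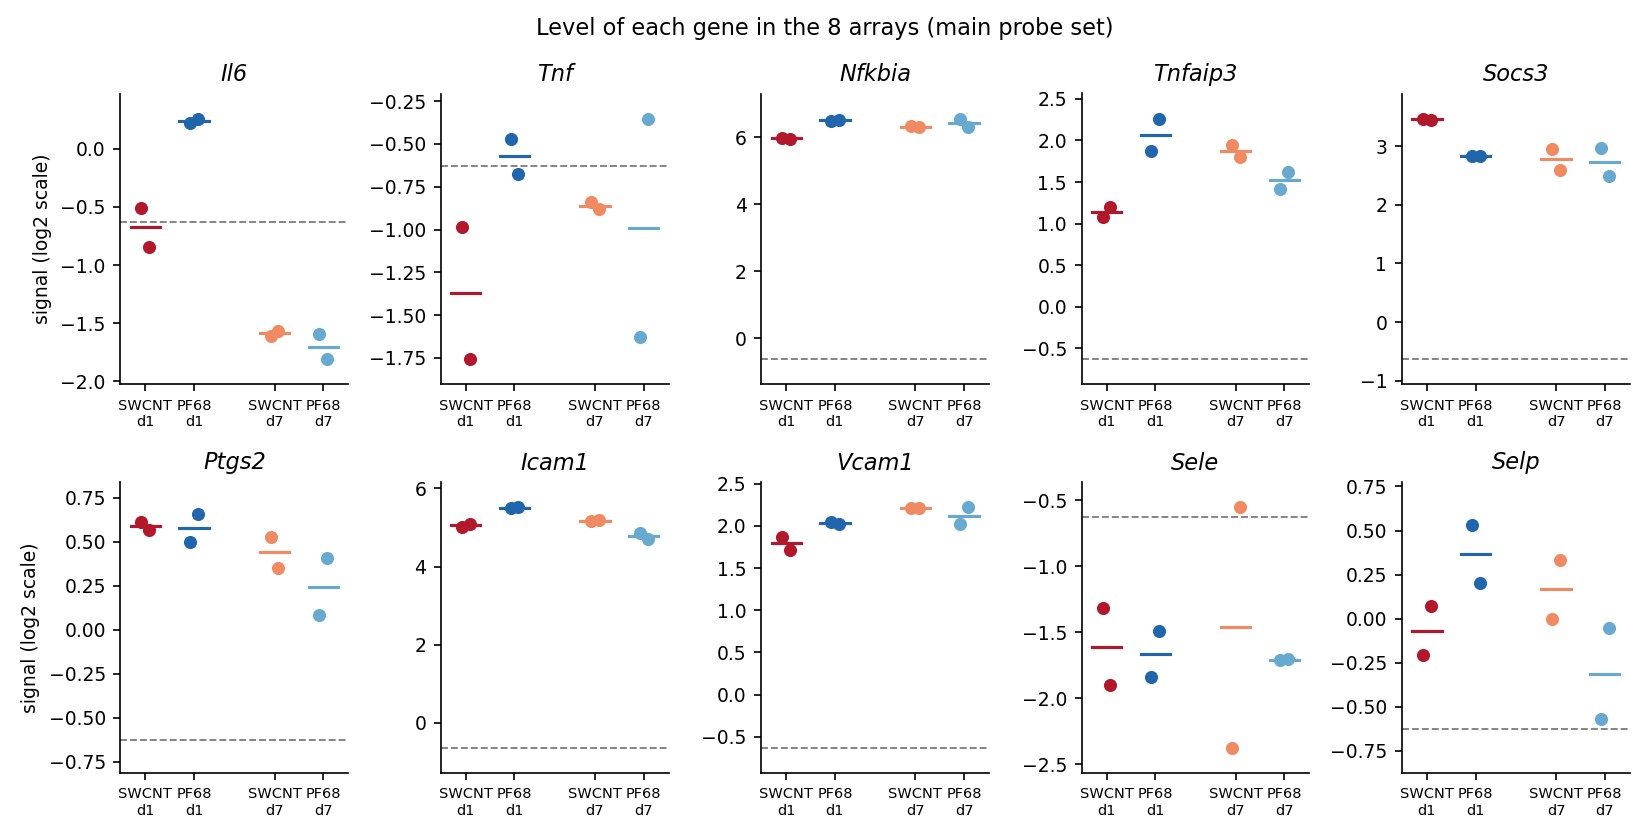
Level of each gene (log2 scale, main probe set) on each of the 8 arrays, with points for arrays, bars for the group mean and a dashed line at the array median of -0.63. On day 1 the SWCNT arrays of Il6, Nfkbia, Tnfaip3 and Icam1 lie below both PF68 arrays, those of Socs3 lie above, and those of Sele overlap the PF68 arrays. The vertical range differs between panels.

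Il6, which encodes the interleukin that drives the acute phase response, was the only 1 of the 9 genes tested that was called between SWCNT and PF68 lungs. Its signal was -0.51 and -0.85 on the SWCNT day 1 arrays, against 0.23 and 0.26 on the PF68 day 1 arrays. On day 7 it was -1.61 and -1.56 in SWCNT and -1.60 and -1.81 in PF68 lungs. PF68 day 1 was thus the highest group, SWCNT day 1 came next, and the day 7 groups were lowest and overlapped each other. The day 1 groups did not overlap, and Il6 was lower in SWCNT by 0.92 on the log2 scale (-0.92 ± 0.15, SE, 1.89-fold if the scale is log2; limma adjusted p = 0.0499). On day 7 the difference was 0.11 ± 0.15 (limma adjusted p = 0.70, 95% interval -0.26 to 0.49).

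That day 1 call sat at the threshold and rested on every array. Of 16 alternative settings, 14 gave an adjusted p above 0.05, up to 0.287 with limma's intensity trend, while the difference stayed between -1.14 and -0.75. Leaving out any 1 of the 8 arrays ended it: adjusted p was 0.228 and 0.243 without a PF68 day 1 array, 0.102 and 0.183 without a SWCNT day 1 array, 0.115 without either SWCNT day 7 array and 0.0754 without either PF68 day 7 array. Of the 8 Il6 values, 5 were below the array median, and no second probe set measured the gene. In RNA from a whole lobe, fewer cells of a type and less transcript per cell cannot be told apart.

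Tnf, which encodes tumour necrosis factor, was dim: 6 of its 8 values lay below the array median. It read -0.98 and -1.76 on the SWCNT day 1 arrays and -0.47 and -0.68 on the PF68 day 1 arrays. On day 7 the SWCNT arrays, at -0.84 and -0.88, lay between the PF68 arrays, at -1.63 and -0.35. The day 1 groups did not overlap, but the difference of -0.80 ± 0.45 did not pass (limma adjusted p = 0.417), nor did that of day 7 (0.13 ± 0.45, adjusted p = 0.89). With values below the array median set to that median, the day 1 difference of Tnf shrank to -0.08.

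Among the feedback inhibitors, Nfkbia, the IkappaB-alpha gene, was measured by 5 probe sets. The main one read 5.99 and 5.95 in SWCNT day 1, against 6.48 and 6.52 in PF68 day 1, then 6.33 and 6.30 in SWCNT day 7 and 6.55 and 6.30 in PF68 day 7. SWCNT day 1 was thus the lowest group and overlapped no other, while each of the other groups overlapped its neighbour in the order of levels. The day 1 difference was -0.53 ± 0.12 (limma adjusted p = 0.101, 95% interval -0.84 to -0.23). Of the other 4 Nfkbia probe sets, 3 had day 1 differences of -0.49 ± 0.15, -0.48 ± 0.15 and -0.43 ± 0.15, with both SWCNT arrays below both PF68 arrays each time. The dimmest, near 1.4, differed by 0.04 ± 0.19. In the fit behind these 4 values, made to all probe sets, dim ones included, the main one differed by -0.53 ± 0.16. These probe sets measure 1 transcript in the same RNA and are no replicates of it.

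Tnfaip3 encodes A20, the ubiquitin-editing enzyme that shuts off signalling from TNF and Toll-like receptors. It read 1.08 and 1.20 in SWCNT day 1 lungs, against 1.87 and 2.26 in PF68 day 1 lungs (-0.93 ± 0.17, limma adjusted p = 0.063). Its second probe set differed by -0.51 ± 0.35, without overlap. That probe set reached the array median only on the PF68 day 1 arrays, through which it passed the level filter described below. On day 7 the order was turned: Tnfaip3 read 1.95 and 1.80 in SWCNT and 1.42 and 1.62 in PF68 lungs, without overlap (0.35 ± 0.17, limma adjusted p = 0.28). SWCNT day 1 was the lowest group and overlapped none. The day 1 difference passed under 3 of 16 alternative settings: the intensity trend (adjusted p = 0.00666), spike scaling (0.0331) and values below the array median set to it (0.0354). Under the others its adjusted p was 0.0676 to 0.252.

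The product of Socs3 blocks JAK and STAT signalling downstream of interleukin-6. By main probe set, Socs3 was the only 1 of the 10 genes with both SWCNT day 1 arrays above both PF68 day 1 arrays. Its main probe set read 3.47 and 3.45 in SWCNT day 1, against 2.84 and 2.83 in PF68 day 1, and 2.95 and 2.59 in SWCNT day 7, against 2.96 and 2.49 in PF68 day 7. The day 1 difference was 0.62 ± 0.20 (limma adjusted p = 0.18, 95% interval 0.14 to 1.11), and that of day 7 was 0.04 ± 0.20 (adjusted p = 0.917). The suffix of this probe set's name marks it as able to bind related transcripts, as does that of a second, which differed by 0.37 ± 0.22 on day 1 and 0.26 ± 0.22 on day 7.

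The third Socs3 probe set has no such suffix, and there the groups were apart on both days. It read 2.87 and 2.98 in SWCNT day 1 against 2.20 and 2.01 in PF68 day 1 (0.82 ± 0.22), and 2.16 and 2.28 in SWCNT day 7 against 1.25 and 1.78 in PF68 day 7 (0.70 ± 0.22). On day 1, Socs3 was thus higher in SWCNT lungs in all 3 probe sets. On day 7 they disagree in size, and the main one shows overlapping groups.

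Ptgs2, the inducible cyclooxygenase gene at the head of prostaglandin synthesis, gave no difference on day 1. Its main probe set read 0.61 and 0.57 in SWCNT day 1 and 0.50 and 0.66 in PF68 day 1, and on day 7 it read 0.53 and 0.35 in SWCNT and 0.08 and 0.41 in PF68 lungs. The groups of each day overlapped, as did all neighbours in the order of levels. The differences were 0.01 ± 0.15 (95% interval -0.36 to 0.39, limma adjusted p = 0.974) on day 1 and 0.20 ± 0.15 (limma adjusted p = 0.493) on day 7. The second probe set of Ptgs2 was below or near the array median and differed by 0.51 ± 0.35 on day 1, without overlap. It went the other way on day 7 (-1.19 ± 0.35), with -1.31 and -2.18 in SWCNT and -0.62 and -0.50 in PF68 lungs. Only these PF68 day 7 arrays reached the array median, and the probe set passed the level filter through them alone.

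**Figure D2:**
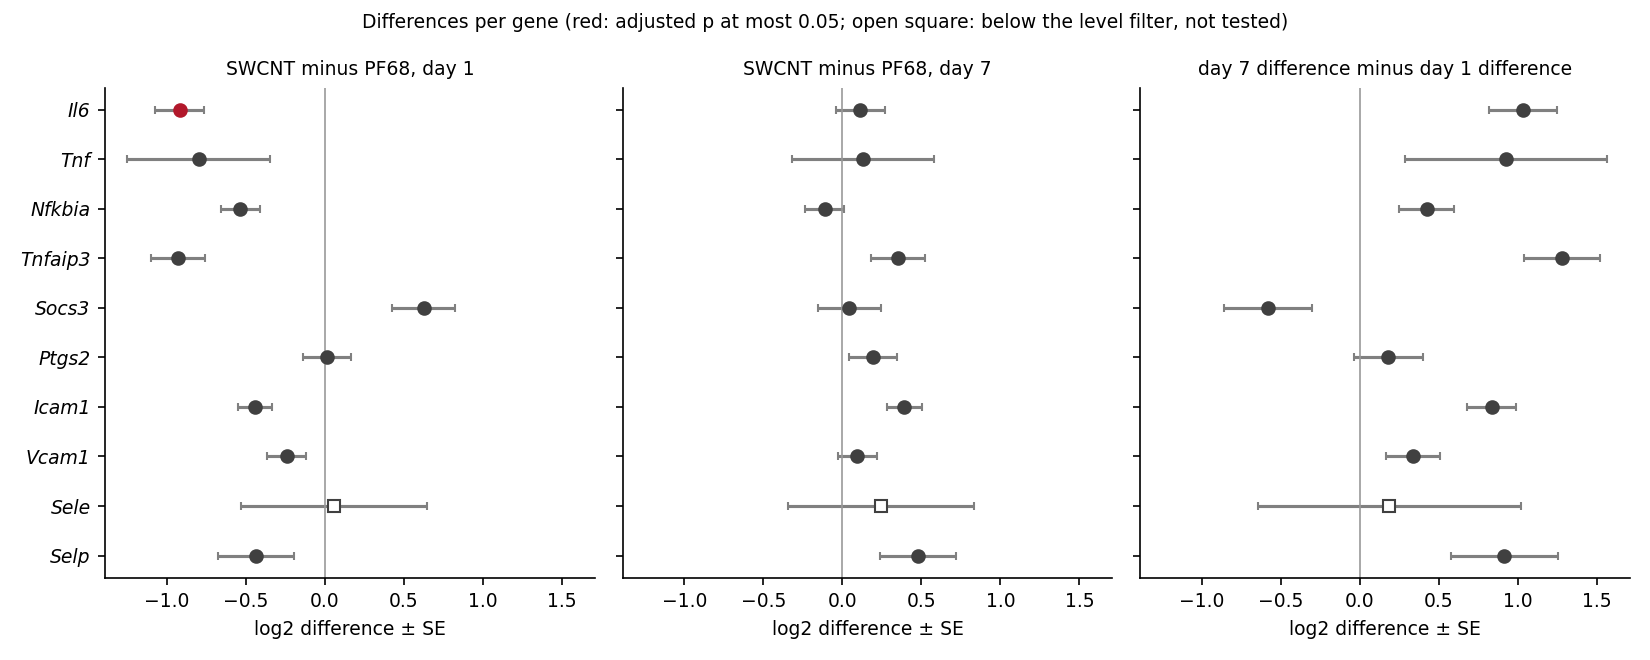
Difference in log2 signal (± SE from the moderated variance, n = 2 arrays per group) for each gene between SWCNT and PF68 on day 1, on day 7, and between these differences, with 1 axis range for the 3 panels. Il6 on day 1, at -0.92, is the only red point (adjusted p at most 0.05), and the open square is Sele, which failed the level filter.

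Of the adhesion molecules, Icam1, the ligand of leukocyte integrins on endothelium and alveolar epithelium, had the smallest standard error of the 9 genes tested. It read 5.02 and 5.10 in SWCNT day 1, against 5.49 and 5.52 in PF68 day 1, and 5.15 and 5.18 in SWCNT day 7, against 4.85 and 4.69 in PF68 day 7. No neighbours in the order of levels overlapped: PF68 day 1 was highest, then SWCNT day 7, SWCNT day 1 and PF68 day 7. Icam1 thus lay below its PF68 arrays on day 1 (-0.44 ± 0.11, limma adjusted p = 0.121, 95% interval -0.71 to -0.17) and above them on day 7 (0.39 ± 0.11, limma adjusted p = 0.112, 95% interval 0.12 to 0.66). Neither difference passed the threshold.

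Vcam1, the ligand of the integrin VLA-4, read 1.87 and 1.71 in SWCNT day 1 and 2.05 and 2.02 in PF68 day 1, and on day 7 it read 2.22 on both SWCNT arrays and 2.02 and 2.22 on the PF68 arrays. SWCNT day 1 was lowest and apart from the next group, while the other groups overlapped. The differences were -0.24 ± 0.12 on day 1 (limma adjusted p = 0.362) and 0.09 ± 0.12 on day 7 (limma adjusted p = 0.685). Of the 2 dimmer probe sets of Vcam1, 1 gave differences near these (-0.23 ± 0.27 on day 1 and 0.01 ± 0.27 on day 7), with overlapping groups. The other went apart from them, with 0.19 ± 0.31 and overlap on day 1. On day 7 it differed by 1.26 ± 0.31, with 0.13 and 0.14 in SWCNT against -1.06 and -1.19 in PF68 lungs.

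Selp, the P-selectin gene of endothelium and platelets, read -0.21 and 0.07 in SWCNT day 1 and 0.53 and 0.20 in PF68 day 1. On day 7 it read 0.00 and 0.33 in SWCNT and -0.57 and -0.05 in PF68 lungs. Like Icam1, it was below its PF68 arrays on day 1 (-0.44 ± 0.24, limma adjusted p = 0.404) and above them on day 7 (0.48 ± 0.24, limma adjusted p = 0.297), but neighbours in the order of levels overlapped throughout. Its 2 other probe sets failed the level filter and differed by 1.01 ± 0.89 and 0.83 ± 0.45 on day 1, and by -1.45 ± 0.89 and 0.91 ± 0.45 on day 7. The former had both SWCNT arrays above both PF68 arrays on day 1 only, and the latter on day 7 only. Sele, the E-selectin gene, which activated endothelium makes, read -1.32 and -1.90 in SWCNT day 1, -1.84 and -1.49 in PF68 day 1, -2.37 and -0.55 in SWCNT day 7 and -1.71 and -1.70 in PF68 day 7. Of its 8 values, 7 lay below the array median. It was not tested, and the groups of each day overlapped (0.06 ± 0.59 on day 1 and 0.24 ± 0.59 on day 7, without the filter).

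**Figure D3:**
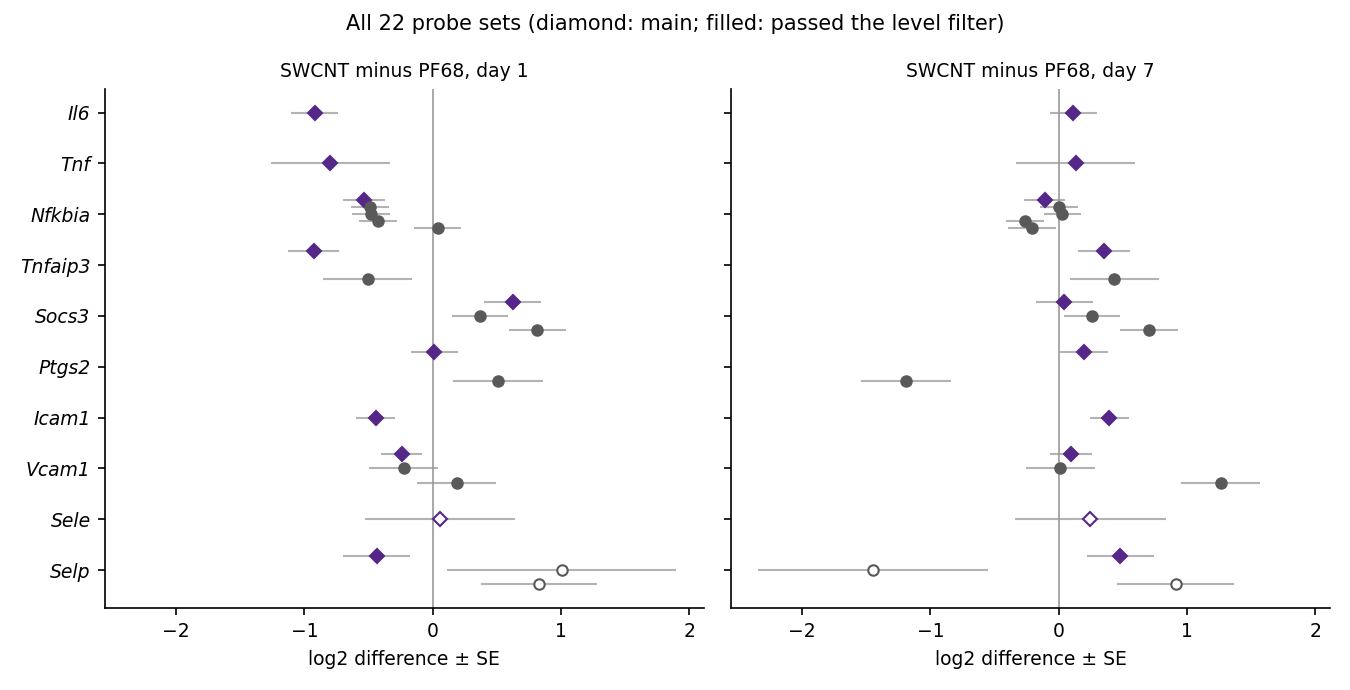
Difference in log2 signal (± SE, n = 2 arrays per group, from a fit to all probe sets without the level filter) of all 22 probe sets between SWCNT and PF68 lungs on day 1 and day 7. The brighter 4 of 5 Nfkbia probe sets lie between -0.53 and -0.43 on day 1, and the 3 of Socs3 between 0.37 and 0.82. On day 7, 1 probe set each of Ptgs2 (-1.19), Vcam1 (1.26) and Selp (-1.45), dimmer than the main one, lies far from it. Diamonds are main probe sets and open symbols failed the filter.

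Counted together, 9 of the 10 genes passed the level filter, which keeps a probe set that reaches the array median on 2 or more arrays, whatever their group. On day 1, 1 of the 9 passed the test as lower (Il6) and none as higher, while 1.23% of the 13854 genes tested were called lower and 0.931% higher in SWCNT. At an unadjusted p below 0.05 there were 5 of the 9 (Il6, Tnfaip3, Nfkbia and Icam1 lower, Socs3 higher), against 18.6% of all genes. By main probe set, both SWCNT arrays lay below both PF68 arrays in 7 of the 10 genes and above them in 1, and 2 overlapped (Ptgs2 and Sele). Over all genes tested, 28.6% were lower in this sense and 24.6% higher. The median difference of the 9 was -0.44, against -0.02 for all genes. Il6 reached the array median only on both PF68 day 1 arrays and the first SWCNT day 1 array. Tnf reached it only on PF68 arrays, the first of day 1 and the second of day 7. Both passed the filter through these few arrays, where PF68 prevails, so the counts and the median of the 9 are a description.

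On day 7 none of the 9 was called, with 1.40% of all genes called higher and 0.780% lower. At an unadjusted p below 0.05 limma gave 1, Icam1, against 23.1% of all genes. By main probe set, the SWCNT arrays lay above the PF68 arrays in 3 of the 10 genes (Tnfaip3, Icam1 and Selp), below them in none, and overlapped with them in 7. Over all genes, 28.2% were higher and 25.0% lower in this sense. The median of the 9 was 0.13, against 0.02 for all genes.

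The change of the SWCNT effect between the days was tested directly. None of the 9 genes passed, with 1.41% of all genes called with a higher difference on day 7 than on day 1 and 0.924% with a lower difference. At an unadjusted p below 0.05 limma gave 4, against 20.8% of all genes. These were Icam1 (0.83 ± 0.16, adjusted p = 0.0596), Tnfaip3 (1.28 ± 0.24, adjusted p = 0.0602), Il6 (1.03 ± 0.22, adjusted p = 0.0746) and Selp (0.91 ± 0.34, adjusted p = 0.208). Socs3 was the only 1 of the 9 with a negative value (-0.58 ± 0.28, adjusted p = 0.309).

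The vehicle lungs themselves differed between the days, but so did the controls for RNA shortening. Another such control, Gapdh, had a 3′ excess over 5′ of 1.04 in PF68 day 1 and 2.40 in PF68 day 7. In SWCNT lungs this excess was 0.716 on day 1 and 2.21 on day 7 (means, n = 2 arrays). That of beta-actin, given above, was also higher on day 7 in both treatments. The part of RNA shortening in the differences over time was not tested. In PF68 lungs, Il6 was lower on day 7 than on day 1 by 1.95 on the log2 scale (-1.95 ± 0.15, limma adjusted p = 0.00638), and Icam1 was lower too (-0.73 ± 0.11, limma adjusted p = 0.0135). The other 7 did not pass, and 8.86% of all genes were called lower and 8.86% higher in this comparison. Their other probe sets differed from the main one in several cases. For Vcam1 the main one gave 0.09 and the others -0.96 ± 0.27 and -1.09 ± 0.31. For Socs3 it was -0.11 against -0.61 and -0.59, and for Tnfaip3 -0.55 against -1.27. For Ptgs2 it was -0.33 against 1.75, from the probe set that reached the array median only in PF68 day 7. For Nfkbia it was -0.07, with the others between -0.37 and 0.27. All 4 day 7 values of Il6 lay below the array median, and it passed the filter only through day 1 arrays. With such values set to the median, its PF68 difference was -0.87 (adjusted p = 0.00411). Leaving out a PF68 day 1 array ended both calls, with adjusted p = 0.061 and 0.0681 for Il6 and 0.0745 and 0.0832 for Icam1. In SWCNT lungs, Il6 was lower on day 7 than on day 1 (-0.91 ± 0.15, limma adjusted p = 0.0166) and Tnfaip3 higher (0.73 ± 0.17, limma adjusted p = 0.0394), where 6.70% of all genes were called lower and 9.59% higher.

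Leaving out a single SWCNT array ended the Tnfaip3 call each time (adjusted p = 0.147 and 0.115 without a day 1 array, 0.164 and 0.119 without a day 7 array), and the mean of both its probe sets differed by 0.20 (adjusted p = 0.496). The Il6 call was lost without the first SWCNT day 1 array (0.0698) or either SWCNT day 7 array (0.0905 and 0.0817). With values below the array median set to it, Il6 differed by -0.06 between the SWCNT groups. The day 1 difference of a gene and its change over time within PF68 lungs share the PF68 day 1 arrays, and are given side by side only.

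Interferon-induced genes were lower in the same SWCNT day 1 lungs. All 11 tested of them were called lower on day 1 (median -2.92), against 1.23% of all genes. Cxcl10 was below the array median on both arrays of every group but PF68 day 1, through which it passed the filter. The summed linear signals were 32.0 and 32.6 in SWCNT day 1 and 224 on both PF68 day 1 arrays. On day 7 they were 39.2 and 40.2 in SWCNT and 42.9 and 44.4 in PF68 lungs. By main probe set, PF68 day 1 had the highest mean of the groups for 6 of the 10 genes (Il6, Tnf, Nfkbia, Tnfaip3, Icam1 and Selp). How often it was highest over all genes was not counted, so that number is a description only. Endothelial markers, 10 of 10 tested, gave no call on either day, with sums of 301 and 317 in SWCNT day 1 and 289 and 303 in PF68 day 1. On day 7 they summed to 213 and 219 in SWCNT and 252 and 258 in PF68 lungs. Platelet markers, which bear on Selp, had 1 of 6 lower on day 1 and none on day 7, with sums of 23.6 and 26.1 in SWCNT day 1, against 28.6 and 30.3 in PF68 day 1, and of 21.1 and 22.1 in SWCNT day 7, against 27.6 and 28.4 in PF68 day 7.

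Neutrophil markers had 1 of 8 lower on day 1 and 5 of 8 lower on day 7, with sums of 141 on both SWCNT day 7 arrays, against 310 and 313 in PF68 day 7. Macrophage markers had 2 of 8 higher on day 7 (sums of 431 and 433 in SWCNT, against 368 and 385 in PF68) and none called on day 1. Alveolar type 1 markers had 1 of 6 lower on day 7, with sums of 451 and 453 in SWCNT and 490 and 492 in PF68 lungs. Mesothelial markers had 1 of 6 lower on day 1, with sums of 52.9 and 53.1 in SWCNT and 38.4 and 40.8 in PF68 lungs. The part of interferon-induced genes and of these cell types in the differences of the 10 genes was not tested.

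The rest of the pathway showed few calls. In these lists, a gene is counted as measured if a probe set of it passed the level filter and was tested. Of the NF-kappaB subunits and IkappaB proteins, 8 of 10 listed genes were measured, without Rel and Nfkb1. None was called on either day, with medians of 0.02 on day 1 and 0.19 on day 7. The largest difference among them was that of Relb, a subunit of the non-canonical pathway, on day 7 (0.92 ± 0.38, limma adjusted p = 0.218). Of the genes that signal from TNF, Toll-like and interleukin-1 receptors to the IKK kinase, 20 of 25 were measured and none was called (medians -0.11 and 0.00). Tab3, which encodes a partner of the kinase TAK1, differed most (-0.91 ± 0.21 on day 1, limma adjusted p = 0.106, and 0.52 ± 0.21 on day 7).

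Of further negative regulators, 16 of 17 were measured and none was called, with medians of -0.15 on day 1 and 0.25 on day 7. Zc3h12a, which encodes an RNase that degrades Il6 mRNA, read 0.32 and 0.31 in SWCNT day 7, against -0.14 and -0.71 in PF68 day 7 (0.74 ± 0.21, limma adjusted p = 0.111). Of the IL-6 family and STAT3 feedback genes, 17 of 18 were measured and none was called (medians -0.08 and 0.16). The cytokine gene Lif had the largest difference of these (0.86 ± 0.26 on day 1, limma adjusted p = 0.167), but it reached the array median only on the SWCNT day 1 arrays, through which it passed the filter. Of the partners in leukocyte adhesion, 16 of 18 were measured and none was called (medians -0.20 and -0.13). Itga4, the alpha chain of the VCAM-1 receptor, differed most at -0.78 ± 0.35 on day 1 (limma adjusted p = 0.307), where its 2 other probe sets differed by -1.15 and -0.44. On day 7 the main Itga4 probe set differed by -0.26 ± 0.35, and the 2 others by more, with -1.42 and -0.98. Medians for all genes were -0.02 on day 1 and 0.02 on day 7.

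Prostaglandin synthesis and receptor genes had 2 of 12 measured genes (16 listed) called higher on day 7, none lower, and none called on day 1 (medians 0.07 and 0.03), beside 1.40% of all genes called higher and 0.780% lower on day 7. Tbxas1, which encodes thromboxane synthase and acts downstream of the cyclooxygenases, read 1.81 and 1.85 in SWCNT day 7, against 0.65 and 0.10 in PF68 day 7 (1.46 ± 0.24, limma adjusted p = 0.0484). Ptgir, the prostacyclin receptor gene, read -0.23 and -0.32 in SWCNT day 7, against -1.21 and -1.06 in PF68 day 7 (0.86 ± 0.11, limma adjusted p = 0.0361), but passed the filter only through its SWCNT arrays, since all 4 PF68 arrays were below the array median. With values set to that median, Ptgir differed by 0.35 (adjusted p = 0.0832). Leaving out any 1 array ended both calls, with adjusted p between 0.0707 and 0.188 for Tbxas1 and between 0.0768 and 0.17 for Ptgir. Ptgs2 itself was not called on that day.

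**Figure D4:**
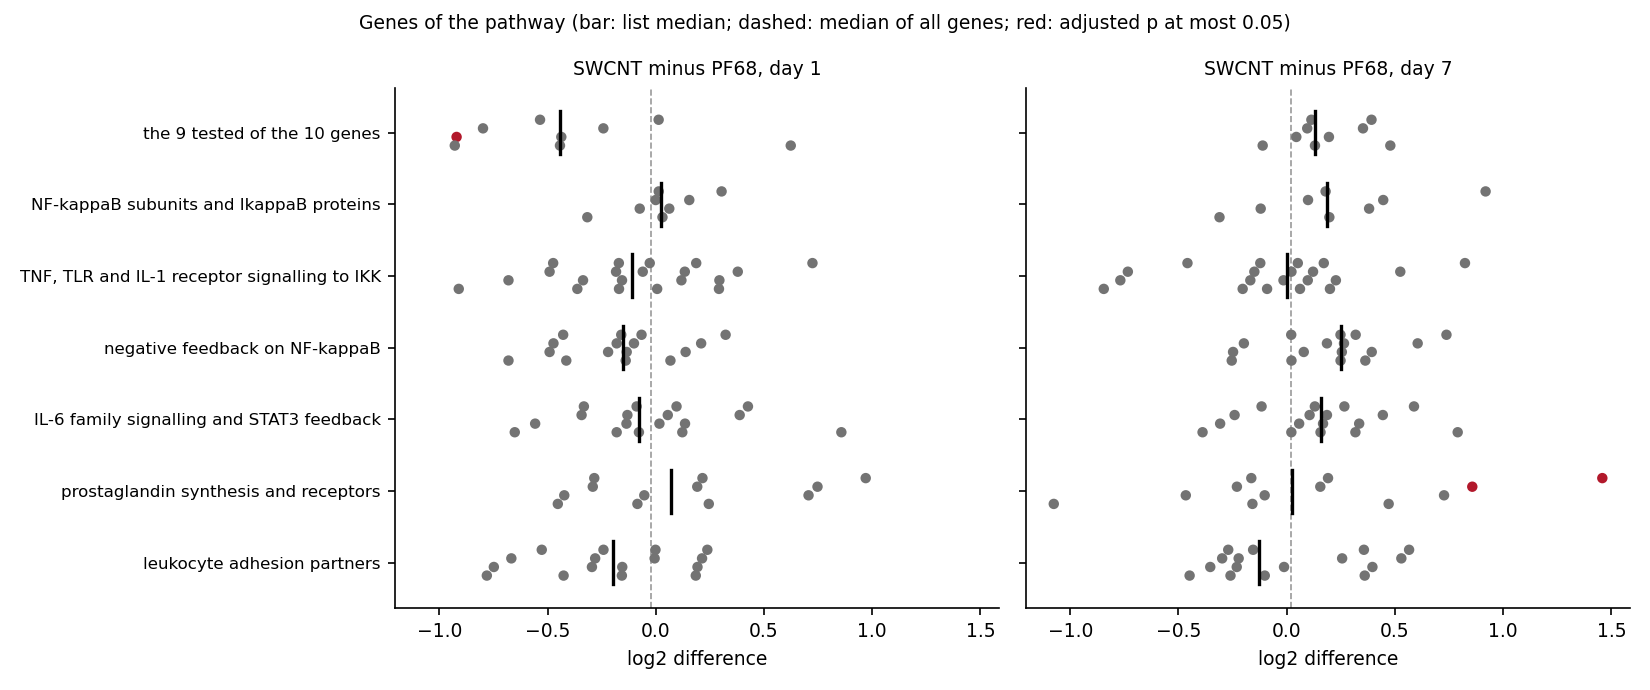
Log2 differences between SWCNT and PF68 lungs on day 1 and day 7 for the 9 tested genes and 6 lists of pathway genes, with 1 point per gene, a bar at each median and a dashed line at the median of all genes. On day 1 the 9 genes have a median of -0.44 while the list medians lie between -0.20 and 0.07, and on day 7 the red points among the lists are Tbxas1 and Ptgir.

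The genes whose levels followed each of the 9 most closely were ranked by Pearson's r over the 8 arrays, out of 13070 candidates. These values describe 4 groups of 2 arrays that share a common distribution, and high values arise readily over so few points. For Il6 the nearest were Ifitm3 (0.994), itself induced by interferon, Limch1 (0.989) and Gars (0.984). For Icam1 they were Pml (0.991), a nuclear body gene that interferon also induces, Sf3b1 (0.966) and Vwa1 (0.963). For Nfkbia they were the lymphocyte gene Cd2 (0.971), Pld4 (0.961) and Rasgrp3 (0.958). For Tnfaip3 they were Pcdhb13 (0.970), Cgrrf1 (0.969) and Ift46 (0.968).

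For Socs3 the nearest was Klhl41 (0.973), a gene of skeletal muscle, then Dusp23 (0.965) and Klhl18 (0.960). Klhl41 averaged 0.06 in SWCNT day 1, -1.33 in PF68 day 1, -1.45 in SWCNT day 7 and -1.24 in PF68 day 7. Only its SWCNT day 1 mean was above the array median. For Vcam1 they were Washc2 (0.983), Unc93b1 (0.976) and Zfp251 (0.971), and for Selp Dmac2 (0.968), Ano10 (0.968) and Cyp39a1 (0.953). For Tnf they were Tdp2 (0.930), Myo1h (0.924) and Zfp710 (0.915). For Ptgs2 they were Trappc11 (0.977), Gna11 (0.956) and Pitpna (0.955).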

How the data were processed

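Biotin-labelled RNA was hybridized to single-colour Affymetrix arrays, per the labels' protocols. The authors' deposited values are signals read as log2. Per the submitters' processing notes they were made with RMA. The sources used here state neither its settings nor the log base. Another log base would multiply every difference by 1 factor and leave calls unchanged. Of 45101 probe sets, 64 controls and 8 with a missing value were left out, and 34939 of the rest had 1 symbol in the platform annotation. Probe sets that reached the array median on 2 or more arrays were kept, which left 13854 genes, each with its brightest probe set.

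A model of 4 group means was fitted to all genes with limma 3.58.1 (R 4.3.3; lmFit, eBayes, 4 residual and 1.81 prior degrees of freedom), and p-values were adjusted by Benjamini-Hochberg over all genes at a threshold of 0.05. The ± is the moderated standard error. For Sele and for probe sets other than the main one, it comes from a fit to all probe sets without the filter. The standard errors of main probe sets were larger in that fit, so the ± of main and other probe sets cannot be compared directly. The procedure was tested on simulated data. The members and lists were chosen with earlier results of these data known. Genes named are the members, up to 4 called genes per pathway list (or the 1 with the largest difference), and the 3 most alike per member, skipping predicted genes and pseudogenes. Traf1 and Socs1 stand in 2 lists, and listed genes with no tested probe set were not analysed here. Alternatives covered the filter, probe set choice, spike scaling, cyclic loess, the variance trend, a replicate block, the arrays fitted and a floor at the array median. For Tbxas1 and Ptgir they were added after seeing the data.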

Additional observations from a re-analysis of the deposited data

How the results depend on the processing

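Calls in the order day 1, day 7, change of effect, time in PF68 and time in SWCNT numbered 300, 302, 324, 2455 and 2257 genes, and 1, 0, 0, 2 and 2 of the 9 genes described. Without the filter, 123, 24, 50, 1407 and 1317 genes were called, with 0 of the 9 on day 1 and 1 over time in SWCNT. With the mean of probe sets it was 193, 97, 157, 1455 and 1384, and 0 of the 9 on day 1. Cyclic loess left 0 of the 9 on day 1. The intensity trend gave 1214, 1530 and 1334 for the first 3 comparisons, with 4 (Socs3, Nfkbia, Tnfaip3 and Icam1, not Il6), 1 (Icam1) and 3 of the 9, and 4 over time in SWCNT. Only the 4 arrays compared gave 57 and 0 on days 1 and 7 and 0 and 7 over time, with 0 of the 9. The replicate block gave 102, 15 and 30, with 0 of the 9 on day 1 and 1 over time in SWCNT. The labels link same-numbered arrays by the number only. Over all genes, their deviations from group means correlated at -0.00605 to 0.0114. Such values cannot exclude a shared factor that acts on some genes or in opposite directions between groups. A floor at the array median gave 559, 764 and 740, with 2 of the 9 on day 1 and 3 for the change of effect.

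Scaling to the hybridization spikes moved the median gene to -0.24 on day 1 and 0.55 on day 7. It gave 737 (101 higher and 636 lower, against 129 and 171), 5893 (5813 and 80, against 194 and 108), 6127 and 5928 genes for the first 4 comparisons, and 4, 7, 7, 8 and 4 of the 9. It turned the day 7 difference of Nfkbia to 0.42 and that of Vcam1 over time in PF68 to -0.51, against -0.11 and 0.09 as deposited. The cause was not tested beyond this shift, which the scaling adds to every gene.

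Leaving out 1 array gave 30 to 189, 0 to 18, 3 to 74, 0 to 1841 and 91 to 2319 genes, and 0, 0, 0, 0 to 2 and 0 to 3 of the 9. Signals below the array median limit Il6, Tnf and Sele.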
